A study of Mus musculus with 9 samples.

Results

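Axon guidance genes were followed across 9 bulk RNA-seq libraries of mouse hepatic stellate cells, the pericytes that store vitamin A in the liver. The set held the semaphorins with their plexin and neuropilin receptors, the ephrins with their Eph receptors, Slits with Robos, and netrins with Unc5 receptors. Members were chosen by gene name, and a gene was kept if it stood at the lowest value of the deposited table in no more than 5 of the 9 libraries. Of 35024 rows, 68 carried such a name and 61 were kept: 7 class 3 semaphorins, 12 semaphorins of classes 4 to 7, 9 plexins, 2 neuropilins, 7 ephrins, 12 Eph receptors, 2 Slits, 3 Robos, 3 netrins and 4 Unc5 receptors. Unc50 shares the letters but is no Unc5 receptor and was left out. All 9 libraries came from mice with floxed Yap1 alleles on a C57BL/6J background. All mice had injured livers, from 6 doses of the liver toxin CCl4 given 3 days apart, and vitamin A positive cells were sorted by FACS 2 days after the final dose. The YAP-deleted group (LratCre+, YAP floxed; 4 libraries, LYT006, LYT008, LYT013 and LYT016) also carried LratCre, a Cre recombinase under the promoter of Lrat, an enzyme of retinoid storage that marks stellate cells. The control group (YAP floxed; 5 libraries, LYT004, LYT005, LYT014, LYT015 and LYT017) carried the floxed alleles without Cre. Cre activity and Yap1 loss cannot be told apart in this design.

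Guidance cues were named for steering growing axons, and the same ligands and receptors position vessels, immune cells and mesenchyme. Semaphorins signal through plexins, whose cytoplasmic part acts on small GTPases and loosens integrin adhesion; secreted class 3 semaphorins mostly need a neuropilin as the binding partner. Ephrins are membrane-bound and signal in both directions with Eph receptor tyrosine kinases on touching cells. Slits repel cells through Robos, and netrins act through Dcc, neogenin and the Unc5 receptors, of which the Unc5 receptors mediate repulsion. YAP, encoded by Yap1, is a transcriptional coactivator held back by Hippo signalling, and it acts on DNA through TEAD factors.

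The label check and the makeup of the libraries come first, since they touch every comparison below. Yap1 had 642, 648 and 645 normalised counts in YAP-deleted LYT006, LYT008 and LYT016 and 2529.8 in LYT013, against 2902, 2915, 3653 and 3551 in control LYT004, LYT005, LYT015 and LYT017 and 618 in LYT014. The library labelled YAP-deleted LYT013 and the library labelled control LYT014 therefore went against their labels, and differences are given both over all 9 libraries as labelled and over the 7 libraries without them. Normalised counts are counts recovered from the deposited values and divided by the size factor of the library. Recovered totals ran from 14052502 to 31816055 counts. The summed level of 11 stellate cell markers was 791406 to 1131705 normalised counts in the YAP-deleted and 658897 to 1051869 in the control libraries, above that of every other marker list in each library. The corresponding ranges were 2823 to 5207 and 1819 to 5028 for 12 endothelial markers, 1051 to 2601 and 716 to 1929 for 12 macrophage markers, 1208 to 1736 and 901 to 1522 for 10 hepatocyte markers, and 3453 to 7589 and 3483 to 8078 for 5 portal fibroblast markers. They were 209 to 1482 and 500.4 to 1415 for 5 mesothelial markers, 47.3 to 213 and 49.0 to 157 for 6 cholangiocyte markers, 10.2 to 26.9 and 13.4 to 24.5 for 6 lymphocyte markers, and 13.8 to 19.2 and 9.8 to 20.7 for 4 Schwann cell markers (S100b at 0 in every library). The 6 smooth muscle markers, of which Acta2 is also made by activated stellate cells, had sums of 26564 to 32713 and 30743 to 37284. The sum of 16 cell cycle genes ranged from 3562 to 18576 in the YAP-deleted and from 3507 to 28178 in the control libraries. The part of these differences in the results below was not tested. In bulk libraries, fewer cells of a type and less RNA per cell cannot be told apart.

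Injured stellate cells carried a guidance repertoire led by a few members of each family. Levels of different genes are compared per kb of the longest coding transcript, as the mean over 9 libraries. Ntn1, the secreted netrin, stood highest at 3700 normalised counts per kb, followed by the transmembrane semaphorin Sema6d at 2920, the plexin Plxnb2 at 1150 and the Slit receptor Robo2 at 1110. Ntn1 and Sema6d alone made up 18.9% and 16.3% of the summed normalised counts of all 61 members. The next levels were those of the Eph receptor Ephb4 (879 per kb), Plxnc1, the receptor of Sema7a (722), the netrin receptor Unc5b (672), the transmembrane ephrin Efnb1 (659) and the secreted semaphorin Sema3d (620). Robo2 ranged from 3182 normalised counts in LYT013, with 7968.5 the next lowest, to 13446. Plxnb2 ranged from 6336 to 9065 and Ephb4 from 3074 to 4664. These ranges are not per kb and cannot be set against each other, so the order of Plxnb2, Robo2 and Ephb4 is not settled.

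**Figure D1:**
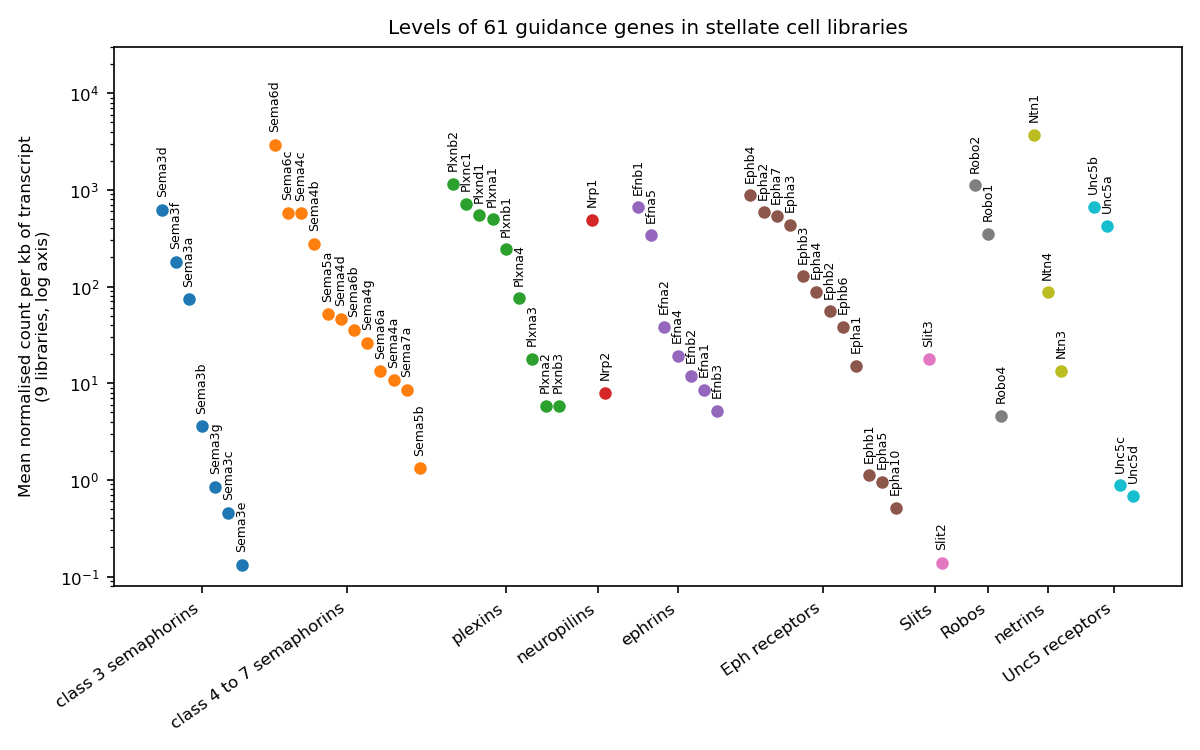
Mean normalised count per kb of transcript over 9 libraries (log axis) for each of 61 guidance genes, grouped and coloured by family. Ntn1 (3700) and Sema6d (2920) stand highest, and Slit2 (0.138) and Sema3e (0.133) lowest.

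Ligands and receptors did not stand at matching levels. Slit ligands stood far below their receptors: Slit3 had 17.6 and Slit2 0.138 normalised counts per kb, while Robo2 had 1110 and Robo1 352. Of the Unc5 receptors, Unc5b (672) and Unc5a (427) carried the family, and Unc5c and Unc5d stood at 0.879 and 0.683 per kb. The netrin receptor Dcc reached no more than 2.5 normalised counts in any library. Its relative Neo1 was detected throughout, with 1039 to 2984 normalised counts. Sema7a, the ligand of Plxnc1, had 8.52 per kb against 722 for Plxnc1 itself. Nrp1, which class 3 semaphorins and VEGF share, had 491 per kb and Nrp2 8.0. In all, 22 members had a mean of 1000 or more normalised counts, 13 had 100 to 1000, 16 had 10 to 100 and 10 had fewer than 10. Sema3e, closest to the rule's limit, was above the lowest value in 5 libraries with at most 3.6 normalised counts, and Sema4f, Efna3, Epha8 and Slit1, just outside, were above it in 1 library each. Epha6, Robo3 and Ntn5 were at the lowest value in all 9.

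No guidance gene passed the test between the YAP-deleted and the control libraries after adjustment over all tested genes, which does not show that the groups were alike. Limma called 0 of 61 members over the 9 libraries as labelled, where it called 0 of 17199 genes (0%), and 0 of 61 over the 7 libraries, where it called 12 of 17199 (0.0698%; 0.0174% higher and 0.0523% lower in YAP-deleted). By limma voom on recovered counts, 0 members passed in either comparison. At an unadjusted p under 0.05 there were 5 members over the 9 libraries (1 higher and 4 lower in YAP-deleted) beside 7.22% of all genes, and 5 over the 7 libraries (3 higher and 2 lower) beside 6.29% of all genes. The median difference of the members, YAP-deleted minus control on the deposited log2-like scale, was −0.10 over the 9 libraries with 38 of 61 negative, against 0 over all tested genes. Over the 7 libraries it was −0.05 with 36 negative, against −0.01 over all genes. Whether every library was a separate mouse is not stated in the labels, and the p-values measure only the spread between libraries, which may be technical.

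**Figure D2:**
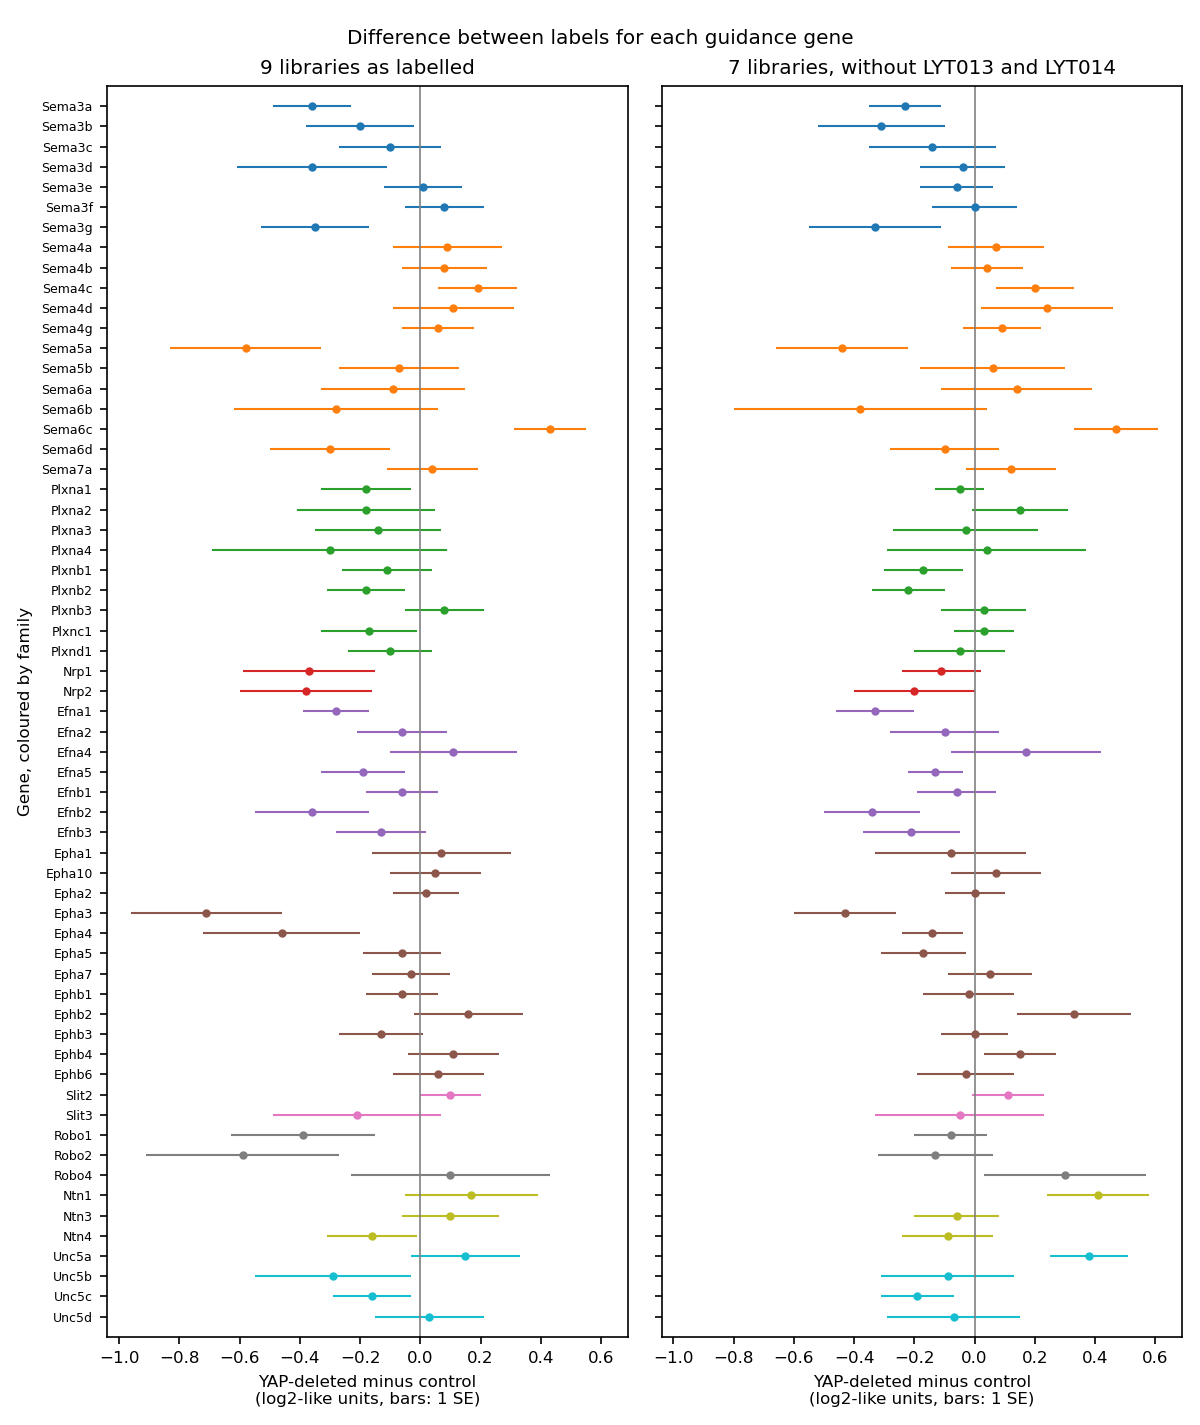
Difference between YAP-deleted and control libraries (log2-like units, points, with bars of 1 SE) for each of 61 guidance genes, left over 9 libraries as labelled and right over 7 libraries without LYT013 and LYT014, coloured by family. Sema6c stands farthest to the right (0.43 and 0.47); Epha3 stands farthest to the left over the 9 libraries (−0.71) and Sema5a over the 7 (−0.44).

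The YAP-deleted and control libraries did not overlap for Sema6c and Efna1, with all 9 libraries as labelled and without LYT013 and LYT014. With LYT013 and LYT014 this order followed the labels and not the Yap1 level, by which the libraries overlapped for both genes. Over the 9 libraries, 2.84% of all tested genes showed no overlap (1.69% higher and 1.15% lower in YAP-deleted), and over the 7 it was 7.32% (3.84% higher and 3.48% lower), so 2 of 61 members is a share near or below the background. Sema6c, a transmembrane semaphorin that binds A-type plexins, had 3132, 2849.8 and 2292 normalised counts in YAP-deleted LYT006, LYT008 and LYT016 and 2605 in LYT013, against 2210.3, 1675, 1853 and 2165 in control LYT004, LYT005, LYT015 and LYT017 and 2127 in LYT014. Every YAP-deleted library was above every control library, LYT013 and LYT014 included. The difference was 0.43 ± 0.12 (SE, limma adjusted p = 0.649) over the 9 libraries and 0.47 ± 0.14 (adjusted p = 0.605) over the 7. Efna1, a GPI-anchored ephrin that binds EphA receptors, had 11.5, 5.1 and 10 normalised counts in YAP-deleted LYT006, LYT008 and LYT016 and 10.8 in LYT013, against 25.6, 20.9, 13.2 and 14.8 in control LYT004, LYT005, LYT015 and LYT017 and 14.4 in LYT014. Its YAP-deleted libraries were all below the control libraries, at counts of 25.6 or fewer in every library, and the difference was −0.28 ± 0.11 (SE, limma adjusted p = 0.649) over the 9 libraries and −0.33 ± 0.13 (adjusted p = 0.764) over the 7. Epha3, an EphA receptor, had the largest difference of all members over the 9 libraries on the deposited scale. It had 1725, 2118 and 2756 normalised counts in YAP-deleted LYT006, LYT008 and LYT016 and 943 in LYT013, against 2449, 2971, 3452 and 2939 in control LYT004, LYT005, LYT015 and LYT017 and 2893 in LYT014. LYT016 lay among the controls and LYT013 far below the rest; the difference was −0.71 ± 0.25 (SE, limma adjusted p = 0.649) over the 9 libraries and −0.43 ± 0.17 (adjusted p = 0.762) over the 7.

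The promoters of these 3 genes (RefSeq, GRCm38.p6, 250 bases before to 50 after a start) are shown. They were chosen because their groups did not overlap (Sema6c, Efna1) or their difference on the deposited scale was the largest over the 9 libraries (Epha3). Capitals mark the TEAD core motif GGAATG, searched on both strands.
Sema6c promoter, chr3:95160170-95160469, plus strand: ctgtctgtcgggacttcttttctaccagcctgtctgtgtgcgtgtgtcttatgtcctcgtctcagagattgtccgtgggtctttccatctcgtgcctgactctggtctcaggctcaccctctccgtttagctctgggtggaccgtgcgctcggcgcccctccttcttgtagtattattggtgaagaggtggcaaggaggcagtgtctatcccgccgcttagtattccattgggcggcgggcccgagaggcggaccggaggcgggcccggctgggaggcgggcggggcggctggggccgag
Efna1 promoter, chr3:89280902-89281201, minus strand: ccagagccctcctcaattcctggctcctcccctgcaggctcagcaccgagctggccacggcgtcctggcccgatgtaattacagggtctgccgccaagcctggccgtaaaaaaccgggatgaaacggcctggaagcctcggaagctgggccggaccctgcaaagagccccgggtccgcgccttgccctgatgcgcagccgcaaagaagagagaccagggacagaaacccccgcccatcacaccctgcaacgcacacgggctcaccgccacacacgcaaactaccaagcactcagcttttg
Epha3 promoter, chr16:63864126-63864425, minus strand: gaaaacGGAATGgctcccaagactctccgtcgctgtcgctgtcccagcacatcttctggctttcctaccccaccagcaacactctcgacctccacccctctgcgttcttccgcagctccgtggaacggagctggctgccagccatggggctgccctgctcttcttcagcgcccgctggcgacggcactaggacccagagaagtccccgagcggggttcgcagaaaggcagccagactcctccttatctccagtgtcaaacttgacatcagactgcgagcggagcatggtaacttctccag
The motif was found once for Epha3 and was not found in these Sema6c and Efna1 windows, nor in the second annotated window of either gene. Of 61 members, 53 matched the promoter table, with 68 windows, of which 9 (13.2%) held the motif, against 14.7% of all 32851 windows. The 9 belonged to Efnb2, Epha1, Epha2, Epha3, Ntn3, Plxnb1, Plxnd1, Robo2 and Sema4a. Sema6c lies on chromosome 3, 95160457 to 95174024, plus strand; Efna1 lies on chromosome 3, 89271733 to 89281142, minus strand; Epha3 lies on chromosome 16, 63543534 to 63864175, minus strand (GENCODE M21, GRCm38).

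**Figure D3:**
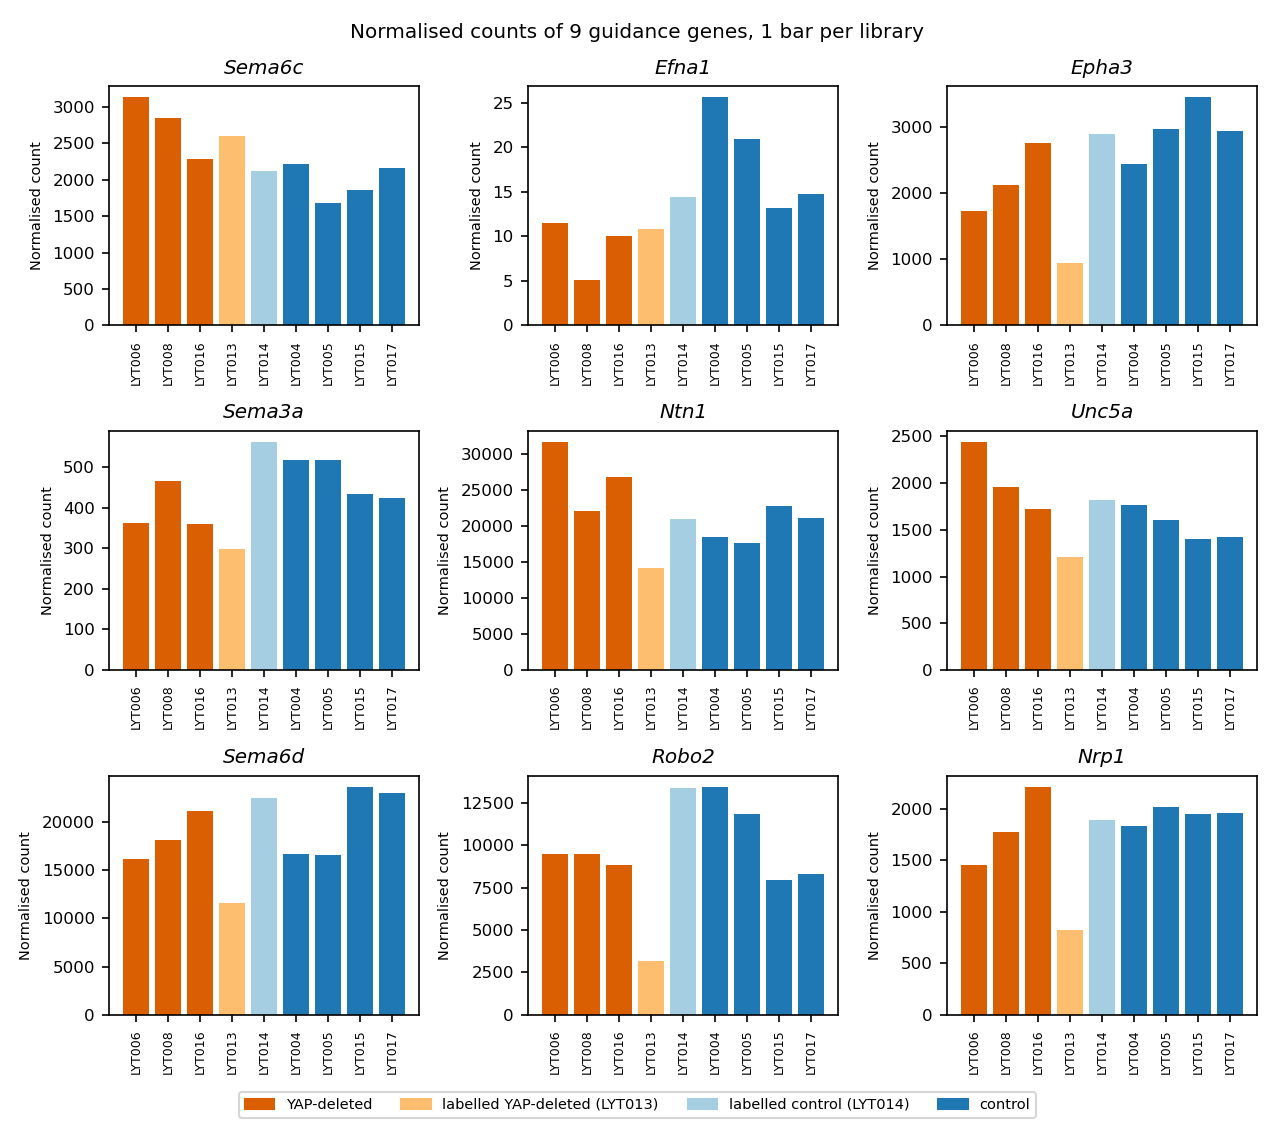
Normalised counts of 9 guidance genes, 1 bar per library, with YAP-deleted libraries on the left, LYT013 and LYT014 in paler colours in the middle and control libraries on the right. Sema6c bars of the YAP-deleted libraries (2292 to 3132) all exceed the control bars (1675 to 2210.3), and LYT013 is the lowest bar for Epha3, Sema3a, Ntn1, Unc5a, Sema6d, Robo2 and Nrp1.

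Among the secreted class 3 semaphorins, Sema3d, Sema3f and Sema3a were well detected, and Sema3b, Sema3c, Sema3e and Sema3g had means of 12.3, 2.5, 0.9 and 3.8 normalised counts. Those 4 differed by between −0.35 and 0.01 over the 9 libraries and between −0.33 and −0.06 over the 7. Sema3d, the family's highest member, had 4449, 3324 and 4531 normalised counts in YAP-deleted LYT006, LYT008 and LYT016 and 1690.3 in LYT013, against 3983, 3581, 4499.7 and 4744 in control LYT004, LYT005, LYT015 and LYT017 and 4402 in LYT014. LYT013 held less than the rest and the other libraries overlapped, with a difference of −0.36 ± 0.25 (SE, limma adjusted p = 0.662) over the 9 libraries and −0.04 ± 0.14 (adjusted p = 0.979) over the 7. Sema3a, a repellent that signals through Nrp1 and A-type plexins, had 362, 464 and 359.6 normalised counts in YAP-deleted LYT006, LYT008 and LYT016 and 298 in LYT013, against 518, 518, 432 and 423 in control LYT004, LYT005, LYT015 and LYT017 and 561 in LYT014. The control LYT015 and LYT017 lay below the YAP-deleted LYT008, so the groups overlapped, and the difference was −0.36 ± 0.13 (SE, limma adjusted p = 0.649) over the 9 libraries and −0.23 ± 0.12 (adjusted p = 0.795) over the 7. Sema3f, which prefers Nrp2, differed by 0.08 ± 0.13 over the 9 libraries and 0.00 ± 0.14 over the 7 (SE). No member of the family passed in either fit.

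Membrane-bound semaphorins of classes 4 to 7 held 7 positive and 5 negative differences over the 9 libraries and 9 positive and 3 negative over the 7, none called. Sema6d had 16143, 18079.8 and 21146 normalised counts in YAP-deleted LYT006, LYT008 and LYT016 and 11579 in LYT013, against 16599, 16548, 23600.2 and 23004 in control LYT004, LYT005, LYT015 and LYT017 and 22457 in LYT014. The control values fell in a low pair (LYT004 and LYT005) and a high pair (LYT015 and LYT017), with all YAP-deleted libraries but LYT013 near or between them, and the difference was −0.30 ± 0.20 (SE, limma adjusted p = 0.653) over the 9 libraries and −0.10 ± 0.18 (adjusted p = 0.958) over the 7. Sema6b, a ligand of A-type plexins, varied more within the labels than any other semaphorin, with a residual SD of 0.60 log2-like units over the 9 libraries. It had 56.5, 231 and 55.1 normalised counts in YAP-deleted LYT006, LYT008 and LYT016 and 125 in LYT013, against 186, 265, 89.5 and 76.6 in control LYT004, LYT005, LYT015 and LYT017 and 119 in LYT014. Its 3 highest libraries, LYT005, LYT008 and LYT004, were also those with the highest summed level of the cell cycle genes (28178, 18576 and 21543 normalised counts, against 3507 to 8218 elsewhere). The share of all genes with the same 3 highest libraries was not counted, and the part of cycling cells in the Sema6b values was not tested. Its difference was −0.28 ± 0.34 (SE, limma adjusted p = 0.776) over the 9 libraries and −0.38 ± 0.42 (adjusted p = 0.932) over the 7. Sema5a, which carries thrombospondin repeats, differed by −0.58 ± 0.25 over the 9 libraries and −0.44 ± 0.22 over the 7 (SE) at a mean of 557.6 normalised counts, with the control LYT017 highest (1029) and LYT013 lowest (231). Sema4b, Sema4c and Sema4d, of the class that B-type plexins bind, differed by 0.08 ± 0.14, 0.19 ± 0.13 and 0.11 ± 0.20 over the 9 libraries and by 0.04 ± 0.12, 0.20 ± 0.13 and 0.24 ± 0.22 over the 7. Sema4a, Sema4g, Sema5b, Sema6a and Sema7a differed by between −0.09 and 0.09 over the 9 and between 0.06 and 0.14 over the 7.

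Plexins, the semaphorin receptors, had 8 of 9 negative differences over the 9 libraries as labelled and 5 of 9 over the 7. Plxnb2, a receptor of class 4 semaphorins, had 6975, 7932 and 6363 normalised counts in YAP-deleted LYT006, LYT008 and LYT016 and 6401 in LYT013, against 8689, 9065, 7644 and 7561 in control LYT004, LYT005, LYT015 and LYT017 and 6336 in LYT014. LYT004 and LYT005 were highest and the groups overlapped, and the difference was −0.18 ± 0.13 (SE, limma adjusted p = 0.679) over the 9 libraries and −0.22 ± 0.12 (adjusted p = 0.800) over the 7. Plxna4, a receptor used by class 3 and class 6 semaphorins, had the widest spread of any member over the 9 libraries (residual SD 0.72 log2-like units). It had 1488, 804 and 954 normalised counts in YAP-deleted LYT006, LYT008 and LYT016 and 299 in LYT013, against 1984, 830.3, 883 and 727 in control LYT004, LYT005, LYT015 and LYT017 and 800.1 in LYT014. LYT004 and LYT006 stood high in their groups and LYT013 low, and the difference was −0.30 ± 0.39 (SE, limma adjusted p = 0.792) over the 9 libraries and 0.04 ± 0.33 (adjusted p = 0.987) over the 7. Plxnc1, Plxna1, Plxnd1 (the receptor of Sema3e) and Plxnb1 (the receptor of Sema4d) differed over the 9 libraries by −0.17 ± 0.16, −0.18 ± 0.15, −0.10 ± 0.14 and −0.11 ± 0.15. Over the 7 libraries the same genes differed by 0.03 ± 0.10, −0.05 ± 0.08, −0.05 ± 0.15 and −0.17 ± 0.13, so that Plxnc1 had the other sign. Plxna2, Plxna3 and Plxnb3 had means of 64.2, 124.6 and 35.1 normalised counts, with differences between −0.18 and 0.08 over the 9 libraries and between −0.03 and 0.15 over the 7.

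Nrp1 and Nrp2 both had lower means in the YAP-deleted libraries, within the spread. Nrp1 had 1456, 1771 and 2212 normalised counts in YAP-deleted LYT006, LYT008 and LYT016 and 820.3 in LYT013, against 1831, 2016, 1949.7 and 1958 in control LYT004, LYT005, LYT015 and LYT017 and 1892 in LYT014. LYT013 was lowest, and the other YAP-deleted libraries reached both below and above the whole control range; the difference was −0.37 ± 0.22 (SE, limma adjusted p = 0.652) over the 9 libraries and −0.11 ± 0.13 (adjusted p = 0.936) over the 7. Nrp2, a co-receptor for Sema3f and VEGF-C, had 47.3, 30.6 and 39.2 normalised counts in YAP-deleted LYT006, LYT008 and LYT016 and 32.9 in LYT013, against 73.5, 24.5, 49.9 and 63.1 in control LYT004, LYT005, LYT015 and LYT017 and 123 in LYT014. LYT014 was the highest library. It also held the highest value of 7 of 12 endothelial markers, among them Kdr with 482 normalised counts, against 8.9 to 90.4 in the YAP-deleted and 6.1 to 118 in the other control libraries. Of the rest, Pecam1 was highest in LYT006 (521 normalised counts, against 327 in LYT014), Tie1 and Tek in LYT008, and Clec4g and Egfl7 in LYT013. The larger endothelial sum of LYT013 was mostly Clec4g (3086 of 5207 normalised counts). The part of endothelial RNA in the Nrp2 values was not tested. The difference was −0.38 ± 0.22 (SE, limma adjusted p = 0.649) over the 9 libraries and −0.20 ± 0.20 (adjusted p = 0.925) over the 7.

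Ephrins were led by Efnb1 and by the GPI-anchored Efna5. Efnb1 had 2554, 2017 and 1832 normalised counts in YAP-deleted LYT006, LYT008 and LYT016 and 1997 in LYT013, against 2536, 2054, 2219 and 2062 in control LYT004, LYT005, LYT015 and LYT017 and 2052 in LYT014. The YAP-deleted LYT008, LYT013 and LYT016 lay below every control library and LYT006 above all of them, so the groups overlapped through LYT006 alone. The difference was −0.06 ± 0.12 (SE, limma adjusted p = 0.865) over the 9 libraries and −0.06 ± 0.13 (adjusted p = 0.962) over the 7. Efna5 differed by −0.19 ± 0.14 over the 9 libraries and −0.13 ± 0.09 over the 7 (SE). Efna4 had 43.8, 51.0 and 14.2 normalised counts in YAP-deleted LYT006, LYT008 and LYT016 and 25.1 in LYT013, against 47.9, 30.7, 9.4 and 24.2 in control LYT004, LYT005, LYT015 and LYT017 and 29.7 in LYT014, all low counts, with a difference of 0.11 ± 0.21 (SE, limma adjusted p = 0.869) over the 9 libraries and 0.17 ± 0.25 (adjusted p = 0.954) over the 7. Efnb2, the ligand of Ephb4 on arterial endothelium, averaged 57.6 normalised counts. It had 31.1, 40.8 and 38.4 normalised counts in YAP-deleted LYT006, LYT008 and LYT016 and 62.2 in LYT013, against 78.8, 36.8, 64.1 and 56.4 in control LYT004, LYT005, LYT015 and LYT017 and 109.9 in LYT014, with LYT014 highest as for Nrp2, and differed by −0.36 ± 0.19 (SE, limma adjusted p = 0.649) over the 9 libraries and −0.34 ± 0.16 (adjusted p = 0.790) over the 7. Efna2 differed by −0.06 ± 0.15 over the 9 libraries and −0.10 ± 0.18 over the 7, and Efnb3 by −0.13 ± 0.15 over the 9 libraries and −0.21 ± 0.16 over the 7. Efna1 is given above.

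Eph receptors split evenly, with 6 positive and 6 negative differences in each fit. Ephb4, the receptor of Efnb2, was the highest per kb. It had 4664, 3884 and 4197 normalised counts in YAP-deleted LYT006, LYT008 and LYT016 and 3152 in LYT013, against 3109, 3887, 4121 and 4229.6 in control LYT004, LYT005, LYT015 and LYT017 and 3074 in LYT014, with overlap between the groups and a difference of 0.11 ± 0.15 (SE, limma adjusted p = 0.806) over the 9 libraries and 0.15 ± 0.12 (adjusted p = 0.901) over the 7. Epha4, which binds ephrins of both classes, had 581, 538 and 574 normalised counts in YAP-deleted LYT006, LYT008 and LYT016 and 189 in LYT013, against 631, 741, 557 and 588 in control LYT004, LYT005, LYT015 and LYT017 and 611 in LYT014. LYT013 lay far below the other 8 libraries, whose groups overlapped, and the difference was −0.46 ± 0.26 (SE, limma adjusted p = 0.649) over the 9 libraries and −0.14 ± 0.10 (adjusted p = 0.886) over the 7. Epha7 and Epha2, also above 2000 normalised counts, differed by −0.03 ± 0.13 and 0.02 ± 0.11 over the 9 libraries and by 0.05 ± 0.14 and 0.00 ± 0.10 over the 7. Ephb2 differed by 0.16 ± 0.18 over the 9 libraries and 0.33 ± 0.19 over the 7, and Ephb3 by −0.13 ± 0.14 over the 9 libraries and 0.00 ± 0.11 over the 7. Ephb6, which has no kinase activity, and Epha1 had means of 143.9 and 49.8 normalised counts and differed by 0.06 ± 0.15 and 0.07 ± 0.23 over the 9 libraries, with the other sign, −0.03 ± 0.16 and −0.08 ± 0.25, over the 7. Epha5, Epha10 and Ephb1 averaged fewer than 10, with differences between −0.06 and 0.05 over the 9 and between −0.17 and 0.07 over the 7.

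In the Slit and Robo pathway the receptors carried nearly all counts. Robo2 had 9509.5, 9465 and 8818 normalised counts in YAP-deleted LYT006, LYT008 and LYT016 and 3182 in LYT013, against 13446, 11821, 7968 and 8309 in control LYT004, LYT005, LYT015 and LYT017 and 13400.0 in LYT014. LYT013 had the lowest value, while the control LYT015 and LYT017 lay below all 3 other YAP-deleted libraries. The difference was −0.59 ± 0.32 (SE, limma adjusted p = 0.649) over the 9 libraries and −0.13 ± 0.19 (adjusted p = 0.951) over the 7. Robo1 differed by −0.39 ± 0.24 over the 9 libraries and −0.08 ± 0.12 over the 7 (SE), again with LYT013 lowest at 1166 against 2255 to 3244 in the other 8. Robo4, a receptor of endothelial cells, had 18.5, 8.9 and 25.9 normalised counts in YAP-deleted LYT006, LYT008 and LYT016 and 28.7 in LYT013, against 11.7, 0, 14.1 and 20.1 in control LYT004, LYT005, LYT015 and LYT017 and 77.8 in LYT014, with LYT014 highest. Its difference was 0.10 ± 0.33 (SE, limma adjusted p = 0.925) over the 9 libraries and 0.30 ± 0.27 (adjusted p = 0.905) over the 7. Slit3, the main ligand here, had 80.7, 93.1 and 114 normalised counts in YAP-deleted LYT006, LYT008 and LYT016 and 31.7 in LYT013, against 148, 145, 106 and 37.6 in control LYT004, LYT005, LYT015 and LYT017 and 73.8 in LYT014. The control LYT004 and LYT005 lay above every YAP-deleted library and LYT017 below all of them but LYT013. Slit3 differed by −0.21 ± 0.28 (SE, limma adjusted p = 0.794) over the 9 libraries and −0.05 ± 0.28 (adjusted p = 0.985) over the 7. Slit2 had 2.3, 2.6 and 0.8 normalised counts in YAP-deleted LYT006, LYT008 and LYT016 and 1.2 in LYT013. It had 1.1, 0, 0.9 and 2.7 in control LYT004, LYT005, LYT015 and LYT017 and 0.8 in LYT014. Its difference was 0.10 ± 0.10 (SE, limma adjusted p = 0.750) over the 9 libraries and 0.11 ± 0.12 (adjusted p = 0.932) over the 7.

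Ntn1 and Unc5a had larger positive differences without LYT013 and LYT014 than with them, and neither passed after adjustment. Without the YAP-deleted LYT006 alone, the 9-library differences were 0.01 for Ntn1 and 0 for Unc5a, and the 7-library differences were 0.28 and 0.24. Ntn1, the most abundant guidance transcript per kb, had 31661, 22061 and 26756 normalised counts in YAP-deleted LYT006, LYT008 and LYT016 and 14161 in LYT013, against 18549.9, 17608, 22805 and 21187 in control LYT004, LYT005, LYT015 and LYT017 and 20946 in LYT014. Without LYT013, the YAP-deleted LYT006 and LYT016 stood above every control library and LYT008 lay within their range. The difference was 0.17 ± 0.22 (SE, limma adjusted p = 0.790) over the 9 libraries and 0.41 ± 0.17 (adjusted p = 0.764) over the 7. Unc5a, a netrin receptor, had 2439, 1962 and 1724 normalised counts in YAP-deleted LYT006, LYT008 and LYT016 and 1204 in LYT013, against 1766, 1606, 1407 and 1424 in control LYT004, LYT005, LYT015 and LYT017 and 1824 in LYT014. LYT006 and LYT008 exceeded every control library, LYT016 lay within the control range and LYT013 was lowest. The difference was 0.15 ± 0.18 (SE, limma adjusted p = 0.776) over the 9 libraries and 0.38 ± 0.13 (adjusted p = 0.702) over the 7. Both were among the 3 members higher at an unadjusted p under 0.05 over the 7 libraries, with Sema6c, and neither was over the 9. Unc5b, the most abundant Unc5 receptor, had 4469, 4803 and 3069 normalised counts in YAP-deleted LYT006, LYT008 and LYT016 and 1969 in LYT013, against 5036, 5625, 3474 and 3473 in control LYT004, LYT005, LYT015 and LYT017 and 3566 in LYT014. Its high libraries were LYT004, LYT005, LYT006 and LYT008, of both labels and all with the low library codes. The 3 highest, LYT005, LYT004 and LYT008, were also those with the highest summed level of the cell cycle genes. The same 3 libraries were highest for Sema6b, Plxnb2, Plxnd1 and Plxna3. The share of all genes with these 3 highest was not counted, so no conclusion is drawn from these members. The parts of cycling cells and of library code in these values were not tested. The Unc5b difference was −0.29 ± 0.26 (SE, limma adjusted p = 0.714) over the 9 libraries and −0.09 ± 0.22 (adjusted p = 0.969) over the 7. Ntn4, a laminin-binding netrin of basement membranes, had 396, 311 and 247 normalised counts in YAP-deleted LYT006, LYT008 and LYT016 and 232 in LYT013, against 413, 328, 303 and 316 in control LYT004, LYT005, LYT015 and LYT017 and 307 in LYT014, with overlap between the groups and a difference of −0.16 ± 0.15 (SE, limma adjusted p = 0.730) over the 9 libraries and −0.09 ± 0.15 (adjusted p = 0.958) over the 7. Unc5c had at most 14.8 normalised counts in a library and a difference of −0.16 ± 0.13 (SE, limma adjusted p = 0.693) over the 9 libraries and −0.19 ± 0.12 (adjusted p = 0.844) over the 7. Ntn3 and Unc5d differed by 0.10 ± 0.16 and 0.03 ± 0.18 over the 9 libraries, with the other sign, −0.06 ± 0.14 and −0.07 ± 0.22, over the 7.

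**Figure D4:**
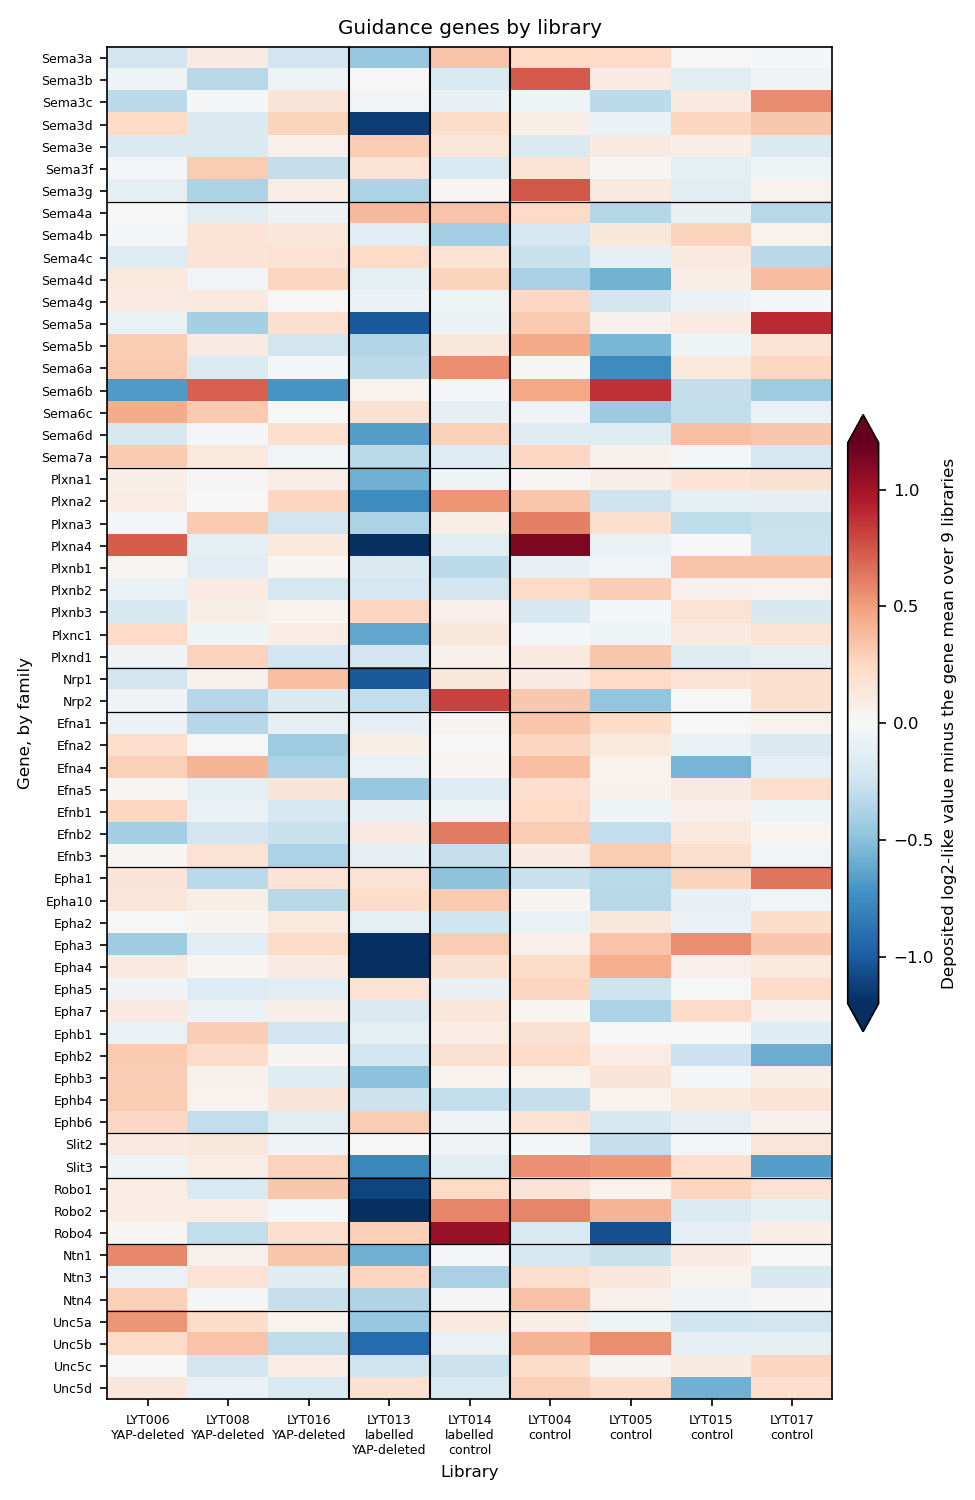
Deposited value of each of 61 guidance genes (rows, by family) in each of 9 libraries (columns, YAP-deleted LYT006, LYT008 and LYT016, then LYT013 and LYT014, then the other controls), as the difference from the gene's mean over the libraries in log2-like units, with differences beyond 1.2 either way at the end colours. The LYT013 column is the lowest of the 9 for 22 genes, among them Robo2, Plxna4 and Epha4.

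LYT013 held the lowest summed level of guidance transcripts. The 61 members together had 76227 normalised counts in LYT013, and 113704 to 125884 in the other 8 libraries. Each of the 10 family sums was lowest in LYT013. It was the lowest library for 22 of 61 members (36.1%), against 26.0% of all tested genes. LYT013 was the highest library for 6 members (9.84%), against 26.8% of all tested genes. Of the 35 members with a mean of 100 or more normalised counts it was lowest for 19 (54.3%), against 34.5% of 10173 genes of that level. The Robo receptors summed to 4376 normalised counts in LYT013, against 11730 to 12273 in the other YAP-deleted libraries and 11072 to 16521 in the controls.

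The ratio of LYT013 to the mean of the other 8 libraries was lower for longer transcripts, among the members as among all genes. Its median was 0.916 for 10 members with a longest coding transcript under 4 kb, 0.669 for 10 members of 4 to 6 kb and 0.608 for 15 members of 6 kb or more. Over all genes of that level, the medians were 1.2, 0.765 and 0.593. Of the 35 members, 25 reached 4 kb. The part of transcript length in the differences over the 9 libraries was not tested. Without LYT013 and LYT014, the median difference of the members was −0.05, and without LYT013 alone it was −0.03.

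**Figure D5:**
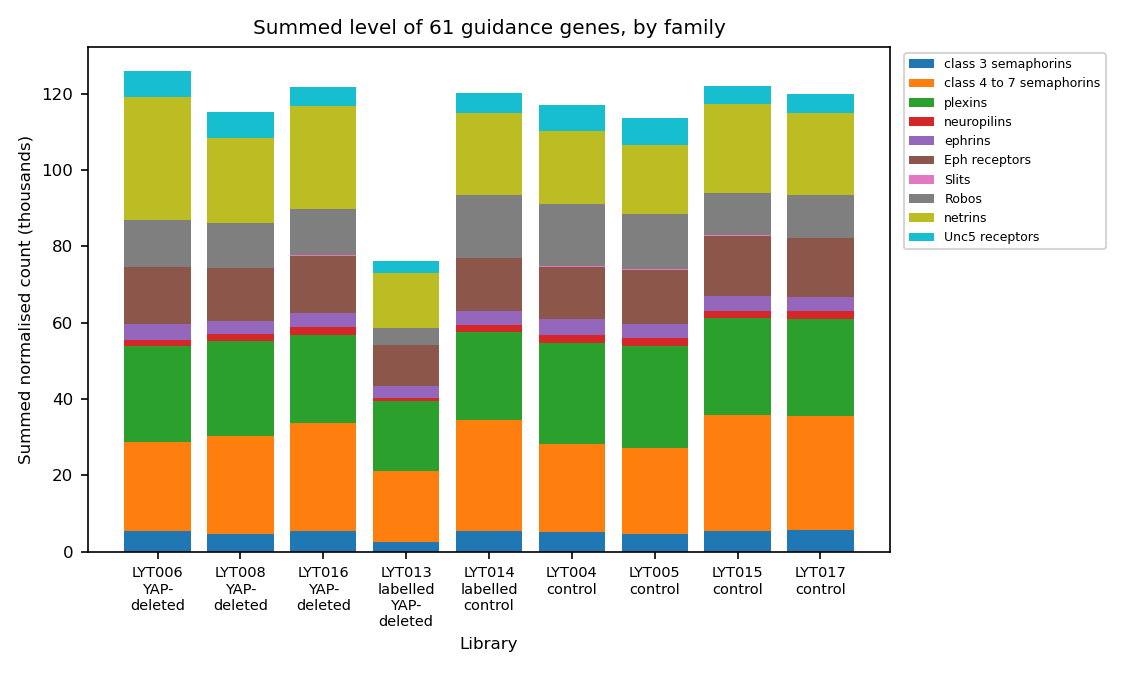
Summed normalised counts of 61 guidance genes in each of 9 libraries, 1 stacked bar per library with a colour for each of 10 families, YAP-deleted libraries on the left, then LYT013 and LYT014, then the other controls. The LYT013 bar is the shortest (76227 normalised counts), against 113704 to 125884 in the other 8 libraries, and each of its segments is the lowest of the 9 libraries.

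The library codes fall in a low range (4 to 8) and a high range (13 to 17), and nothing in the labels says whether these mark separate preparations. Within codes 4 to 8 (LYT006 and LYT008 against LYT004 and LYT005) the median difference of the members was −0.01, and within codes 13 to 17 (LYT013 and LYT016 against LYT014, LYT015 and LYT017) it was −0.14. Sema6c differed by 0.62 within the low and 0.25 within the high codes, Efna1 by −0.49 and −0.13, and Epha3 by −0.48 and −0.90. Of the 24 members chosen by level, p or residual SD, 16 had the same sign in both ranges, and for Sema6c and Efna1 the groups' lack of overlap fixes it. Others were chosen for the smallest p over these same libraries, which favours the same sign. The share over all genes was not counted, so no conclusion is drawn from the 16. Ntn1 differed by 0.55 within the low and −0.15 within the high codes, and Unc5a by 0.37 and −0.09. A limma test of the difference between the code ranges called 0 of 17199 genes (0%), with 0 of 61 members.

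Genes that work beside the members were described as 2 further lists. Of 19 co-receptors and other ligands, 18 were tested and 0 were called in either fit. Of these, 4 had a positive and 14 a negative difference over the 9 libraries (median −0.07, against 0 over all tested genes), and 7 and 11 over the 7 (median −0.06, against −0.01). Dcc, too low to test, is the exception. Adgrl3, a latrophilin that binds Unc5 and Flrt proteins, differed by −0.63 ± 0.16 over the 9 libraries (SE, limma adjusted p = 0.649) and −0.52 ± 0.17 over the 7 (adjusted p = 0.666). Met, which associates with plexin B1, differed by −0.32 ± 0.12 and −0.31 ± 0.12 (SE), at only 1.2 to 14.9 normalised counts in a library. Dag1, the dystroglycan gene whose product binds Slits, differed by −0.33 ± 0.15 and −0.24 ± 0.10 (SE). The netrin receptor Neo1 differed by −0.34 ± 0.22 over the 9 libraries, with its lowest value in LYT013, and by −0.10 ± 0.16 over the 7. In the other direction, Cd72, a receptor of Sema4d on B cells, differed by 0.37 ± 0.17 over the 9 libraries and 0.27 ± 0.16 over the 7. Ntng2, a GPI-anchored netrin-G, differed by 0.15 ± 0.15 over the 9 and 0.34 ± 0.11 over the 7 (SE, limma adjusted p = 0.741 and 0.647), the smallest p of this list over the 7 libraries. There its YAP-deleted libraries all lay above the controls, as for 3.84% of all tested genes. Those of Dag1 and Met all lay below the controls, as for 3.48%. Over the 9 libraries the groups overlapped for all 3 genes.

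All 40 cytoplasmic effectors were tested, and 0 were called in either fit. They had 16 positive and 24 negative differences over the 9 libraries (median −0.07) and 22 and 18 over the 7 (median 0.01). Ablim1, an actin-binding protein whose counterpart in Caenorhabditis elegans acts in netrin signalling, had the smallest p of this list in both fits, with differences of −0.62 ± 0.15 over the 9 libraries (SE, limma adjusted p = 0.649) and −0.59 ± 0.14 over the 7 (adjusted p = 0.469). Srgap1, a GTPase-activating protein that binds Robo receptors, differed by −0.47 ± 0.13 over the 9 libraries and −0.45 ± 0.15 over the 7 (SE, limma adjusted p = 0.649 and 0.668). Srgap1 had low counts, 11.5 to 46.5 normalised counts in a library. For both genes every YAP-deleted library lay below every control library, with and without LYT013 and LYT014, as did 1.15% and 3.48% of all tested genes. With LYT013 and LYT014 this order followed the labels and not the Yap1 level, by which the libraries overlapped for both genes. Pak1, a kinase downstream of Rac, differed by 0.34 ± 0.23 over the 9 libraries and 0.67 ± 0.17 over the 7 (SE, limma adjusted p = 0.662 and 0.533). Anks1, an adaptor of Eph receptors, differed by 0.03 ± 0.14 over the 9 libraries and 0.22 ± 0.07 over the 7 (SE, limma adjusted p = 0.958 and 0.666). Over the 7 libraries the YAP-deleted values of Pak1 and Anks1 all lay above the controls, as for 3.84% of all tested genes, and over the 9 they overlapped. Dpysl2, a microtubule-binding mediator of Sema3a signals, differed by 0.45 ± 0.17 over the 9 libraries and 0.26 ± 0.15 over the 7 (SE, limma adjusted p = 0.649 and 0.820).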

How the data were processed

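Bulk RNA-seq of 9 stellate cell libraries was analysed from 1 deposited table of 35024 gene names. The submitters' processing notes name the tools kallisto 0.44.0, sleuth and bcl2fastq 2.20 and, without a role, the builds mm10, GRCm38 and GRCh38. The labels' protocols describe poly-A selection and ribosomal depletion; the choice per library was not given in the sources used here. Values deposited by the authors are on a variance-stabilised log2 scale with a lowest value of 4.96; how they were made was not given in the sources used here. Counts were recovered by inverting that transform (whole within 0.1 for 100.0% of values in each library) and divided by size factors. Recovered totals ran from 14052502 to 31816055 counts, and depth limits the members under 10 normalised counts most.

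LYT013 was read from a column headed LYT013.1; every other header equalled its library code. Group and code come from the sample titles. Differences (YAP-deleted minus control) were tested on the deposited values with limma 3.58.1 in R 4.3.3 (lmFit, moderated with a mean trend, two-sided) over the 17199 genes that exceeded the lowest value in 4 or more libraries, with Benjamini-Hochberg adjustment over all of them and a threshold of 0.05. SEs are moderated. Names listed more than once (2) were left out. The fit was tested on simulated data. Count models were not used, since the deposited unit is log2; limma voom on recovered counts was an alternative. Members and lists were chosen with earlier results of these data known. Values in every library are given, per family, for the member with the highest mean level, the smallest p in each fit and the largest residual SD; Sema5a, Efnb2 and the list genes with values were chosen after their values were seen. Levels per kb use the longest coding transcript of GENCODE M21 (GRCm38). Alternatives changed the filter, scaling, offset, moderation, library weights, code range and libraries included.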

Additional observations from a re-analysis of the deposited data

Results flagged for a closer look

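In each label group of 4 or 5 libraries, a library was singled out when its gap to the nearest other library took up an unusually large part of the group's range (Dixon's 95% critical value). Over 70 such groups 5 were singled out. Chance gives about 1 in 20, or 3.5, for separate groups chosen beforehand. Here many genes were picked for a small p or a large residual SD in these same libraries, and the family sums contain them. The number can therefore not be compared with chance. In 3 of the 5 the library was LYT013, and Robo2 and the Robo sum are largely 1 observation, since Robo2 made up 3182 of the 4376.3 normalised counts of that sum.

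Robo2, the main Slit receptor here, had a deposited value of 11.66 log2-like units in LYT013, while the other YAP-deleted libraries had 13.12 to 13.22. The summed Robo receptors had 4376.3 normalised counts in LYT013, and 11729.6 to 12272.7 in the other YAP-deleted libraries. Epha4, a receptor for ephrins of both classes, had 7.95 in LYT013 and 9.23 to 9.33 in the other YAP-deleted libraries. LYT013 is also the library whose Yap1 level went against its label.

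Among the control libraries, LYT004 stood apart for the plexin Plxna4, with 11.00 against 9.62 to 9.88 in the other 4. LYT004 also stood apart for Ntn4, with 8.89 against 8.5 to 8.6 in the other control libraries.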

How the results depend on the processing

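No guidance gene was called in either fit under any alternative run, and none of the 24 genes chosen by level, p or residual SD passed. No paired analysis was possible because the groups share no replicate numbers (each library has its own code). The count over all genes was 0 over the 9 libraries and 12 over the 7 libraries without LYT013 and LYT014; within codes 4 to 8 it was 3. Over the 7 libraries it was 7 with limma voom and 25 with the code range as a covariate, and leaving out 1 library gave 0 to 0 (9 libraries) and 2 to 11 (7 libraries). The members' median over the 9 libraries was −0.01 with library weights and −0.01 within codes 4 to 8; leaving out 1 library gave −0.14 to −0.03 over the 9 (−0.03 without LYT013) and −0.06 to 0 over the 7. Codes 13 to 17 alone were fitted for the 9 libraries only. Signs turned as follows, for small differences and also for larger ones, and the cause was not tested. Among the larger ones over the 9 libraries were Sema3d (−0.36), Plxna4 (−0.30), Sema6d (−0.30), Unc5b (−0.29) and Slit3 (−0.21). Over the 9 libraries, library weights gave Plxna4 0.17, Efnb1 0.01, Robo4 −0.05 and Unc5b 0.02. Codes 4 to 8 gave Sema3d 0.03 and Sema6d 0.04, and codes 13 to 17 gave Efna4 −0.02, Ephb4 −0.05, Slit2 −0.04, Robo4 −0.09, Ntn1 −0.15 and Unc5a −0.09. Plxna4 was 0.04 without LYT013 and LYT014 and 0.10 without LYT013, Slit3 0.01 without LYT013, Efna4 −0.01 without LYT008 and −0.02 without LYT015, and Robo4 −0.15 without LYT005. Over the 7 libraries, library weights gave Efnb1 0.01, Slit3 0.01, Ntn4 0.01 and Unc5b 0.05, the code covariate Sema3d 0 and Plxna4 −0.04, and codes 4 to 8 Sema3d 0.03, Sema6d 0.04 and Plxna4 −0.22. Leaving out 1 of the 7 libraries gave Plxna4 −0.20 to −0.03 (without LYT006, LYT005, LYT015 or LYT017), Slit3 0.02 to 0.08 (without LYT006, LYT004 or LYT005), Sema3d 0.10 and 0.02 (without LYT008 or LYT017), Unc5b 0.11 and 0.04 (without LYT016 or LYT005), Efnb1 0.04 and 0 (without LYT016 or LYT004), Nrp1 0.03 (without LYT006), Ntn4 0.05 (without LYT016) and Robo2 0.01 (without LYT004). Over all 9 fits that leave out 1 library, the same results reached Plxna4 −0.60 to 0.10, Efna4 −0.02 to 0.25, Slit3 −0.40 to 0.01 and Robo4 −0.15 to 0.38; over all 7 such fits without LYT013 and LYT014 they reached Sema3d −0.12 to 0.10, Plxna4 −0.20 to 0.35, Nrp1 −0.26 to 0.03, Slit3 −0.32 to 0.08, Robo2 −0.24 to 0.01, Ntn4 −0.24 to 0.05, Unc5b −0.21 to 0.11 and Efnb1 −0.20 to 0.04. Without LYT006 the 9-library differences were 0.01 for Ntn1 and 0 for Unc5a.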
